A study of Rattus norvegicus with 6 samples.

Results

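The genes examined encode the subunits of voltage-gated sodium channels, voltage-gated calcium channels and hyperpolarization-activated cyclic nucleotide-gated (HCN) channels. They were chosen by symbol alone, as every gene whose name begins with Scn and a digit, with Cacn, or with Hcn and a digit, which gave 44 of the 19382 genes in the table. Of these, 24 encode pore-forming subunits and 20 encode auxiliary subunits. The tissue was rat brain, read out by RNA sequencing in 6 libraries. The hypoxia-ischemia (HI) group of 3 libraries came from SD rats exposed to ischemia and hypoxia for 2.5 h when they were 7 days old, and the control group of 3 libraries came from rats labelled as control treatment. Brain region, delay from injury to sampling and age of the control rats are not in the labels. Nor is it stated whether each library is a different rat, and p-values therefore describe the spread among these 6 libraries only.

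Sodium channels open on depolarization and carry the upstroke of the action potential, calcium channels turn depolarization into calcium entry that drives transmitter release, dendritic signals and gene transcription, and HCN channels open on hyperpolarization and set resting conductance and rhythm. In each sodium and calcium channel a large alpha subunit forms the pore, and smaller subunits control its delivery to the membrane and its gating. In the developing rodent brain the sodium channel repertoire shifts from Scn3a and Scn2a towards Scn8a as axon initial segments and nodes of Ranvier mature.

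Most subunit transcripts stood lower in HI. Of 41 subunit genes with enough reads to be tested, 9 fell and 1 rose at an edgeR adjusted p below 0.05 (quasi-likelihood test, Benjamini-Hochberg over 14959 genes). Those that fell included the sodium channel genes Scn8a and Scn2a and the calcium channel genes Cacna1d, Cacna1i, Cacnb3, Cacna2d1 and Cacng8. The gene that rose was Scn7a. Called subunit genes made up 24.4% of those tested, against 13.9% of all tested genes, genes called lower made up 22.0%, against 7.04% of all, and the gene called higher 2.44%, against 6.83% of all. The median log2 fold change was -0.61 over the 41 subunit genes and 0.04 over all tested genes, and 33 of the 41 had a value below 0. All 3 HI libraries lay below all 3 controls for 22 subunit genes (53.7%, against 20.8% of all tested genes). They lay above them for 4 of the 41, against 21.5% of all tested genes. In 15 of the 41 the groups overlapped, against 8630 of all 14959 tested genes, which leaves 42.3% of all tested genes with separate groups. Of the 34 subunit genes with a mean of at least 10 CPM, 9 fell and 0 rose by edgeR (26.5% lower, against 9.23% of all 10753 tested genes at that level) and 20 had an unadjusted p below 0.05, as did 4080 of the 10753. The median was -0.67, against -0.04 for all tested genes at that level. CPM are counts scaled to the size of a library and its TMM factor.

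The number of calls depended on single libraries, for all tested genes as for the subunit genes. Without HI 2, without control 1 and without control 2, edgeR called 0, 0 and 0 subunit genes and 0, 0 and 1 of all tested genes. In the same fits 17, 17 and 18 of the 41 subunit genes had an unadjusted edgeR p below 0.05. So did 4175 of 15151, 3962 of 15321 and 4008 of 15322 tested genes. The median log2 fold change of the subunit genes was -0.64, -0.63 and -0.64 in these fits, against -0.61 in all libraries. Without HI 3, edgeR called 3 subunit genes, all lower (Scn8a, Scn2a and Cacnb3, 7.32%, against 4.27% of all tested genes called in either direction). The median log2 fold change over the 41 subunit genes was -0.38 in that fit. Without HI 1 edgeR called 17 (24.2% of all tested genes) and without control 3 it called 8 (1694 of 15335 tested genes). In the full set DESeq2 called 19 of 44 subunit genes, against 22.1% of all genes it tested.

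**Figure D1:**
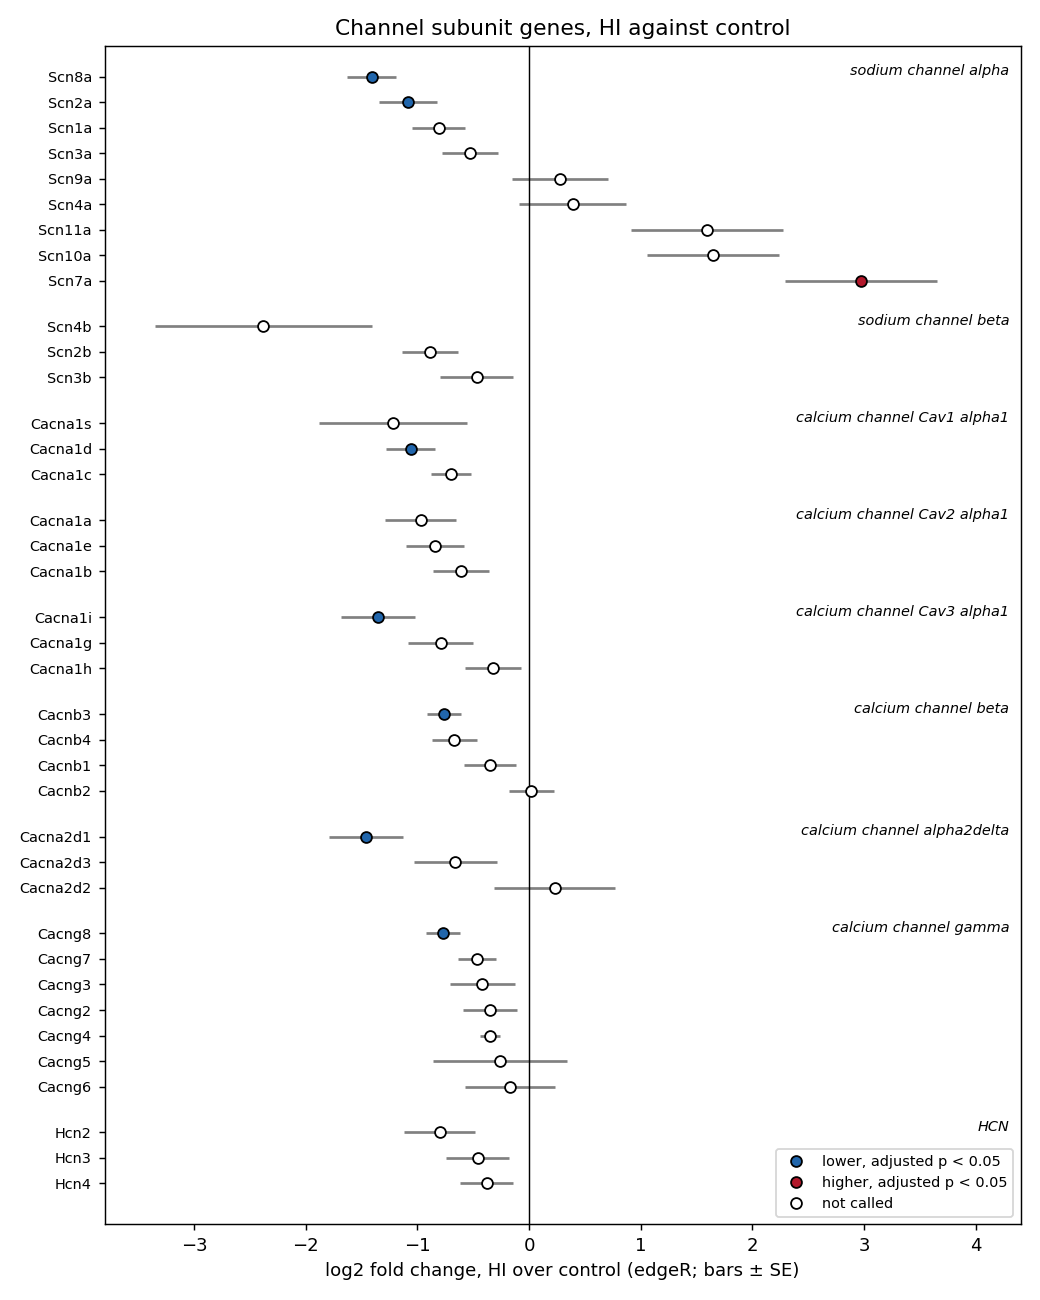
Log2 fold change of HI over control (horizontal axis, edgeR, bars ± SE, 3 libraries per group) for tested subunit genes, grouped by class. The filled blue points to the left of 0 fell and the filled red point, Scn7a at 2.97, rose, while white points did not pass the test.

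Libraries held 13922663 to 14927469 estimated reads each. Summed levels of cell type markers differed between libraries, also within the control group. Summed CPM of 10 excitatory neuron markers were 365, 641 and 517 in HI 1, 2 and 3 and 2200, 2390 and 1250 in controls 1, 2 and 3, so control 3 held less of them than the other controls. Summed CPM of 8 striatal neuron markers were 375, 247 and 215 in HI 1, 2 and 3 and 200, 304 and 1500 in controls 1, 2 and 3, and those of 8 choroid plexus markers 184, 8060 and 15100 in HI and 20.7, 2140 and 12.3 in the controls. General neuron markers summed to 3320 to 6100 CPM in HI and 8270 to 10100 CPM in the controls, and 4 of 12 fell and 0 rose, with a median log2 fold change of -1.04. Of the 10 excitatory neuron markers 5 fell and 0 rose (median -1.98), and of 10 inhibitory neuron markers 0 passed by edgeR (median 0.34). Over all tested genes, 7.04% fell and 6.83% rose (median 0.04). Inhibitory neuron markers summed to 1160, 871 and 567 CPM in HI 1, 2 and 3. In controls 1, 2 and 3 they summed to 421, 517 and 1190 CPM, so control 3 alone stood high among the controls. In bulk tissue, fewer cells of a type and less RNA per cell cannot be told apart. The part of these markers in the subunit values was not tested.

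Over the 41 tested subunit genes the median log2 level, taken against the mean of the controls, came to -0.37, -0.54 and -1.16 for HI 1, 2 and 3 and to 0.01, -0.09 and 0.15 for controls 1, 2 and 3. All tested genes had medians between -0.01 and 0.03 in the 6 libraries. HI 3 was the lowest HI library for 35 of the 41 genes, and it lay more than 1.5-fold below both other HI libraries for 17, among them Scn1a, Scn2a, Scn3a and Scn8a. Control 3 lay more than 1.5-fold above both other controls for 8 genes and more than 1.5-fold below them for 3. Control 1 lay that far from the others for 0 genes. General neuron markers followed the same order in HI, at 6100, 5130 and 3320 CPM in HI 1, 2 and 3. They did not in controls 1, 2 and 3, at 10100, 9990 and 8270 CPM. Control 3 was the lowest control for these markers and the highest for the subunit median.

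**Figure D2:**
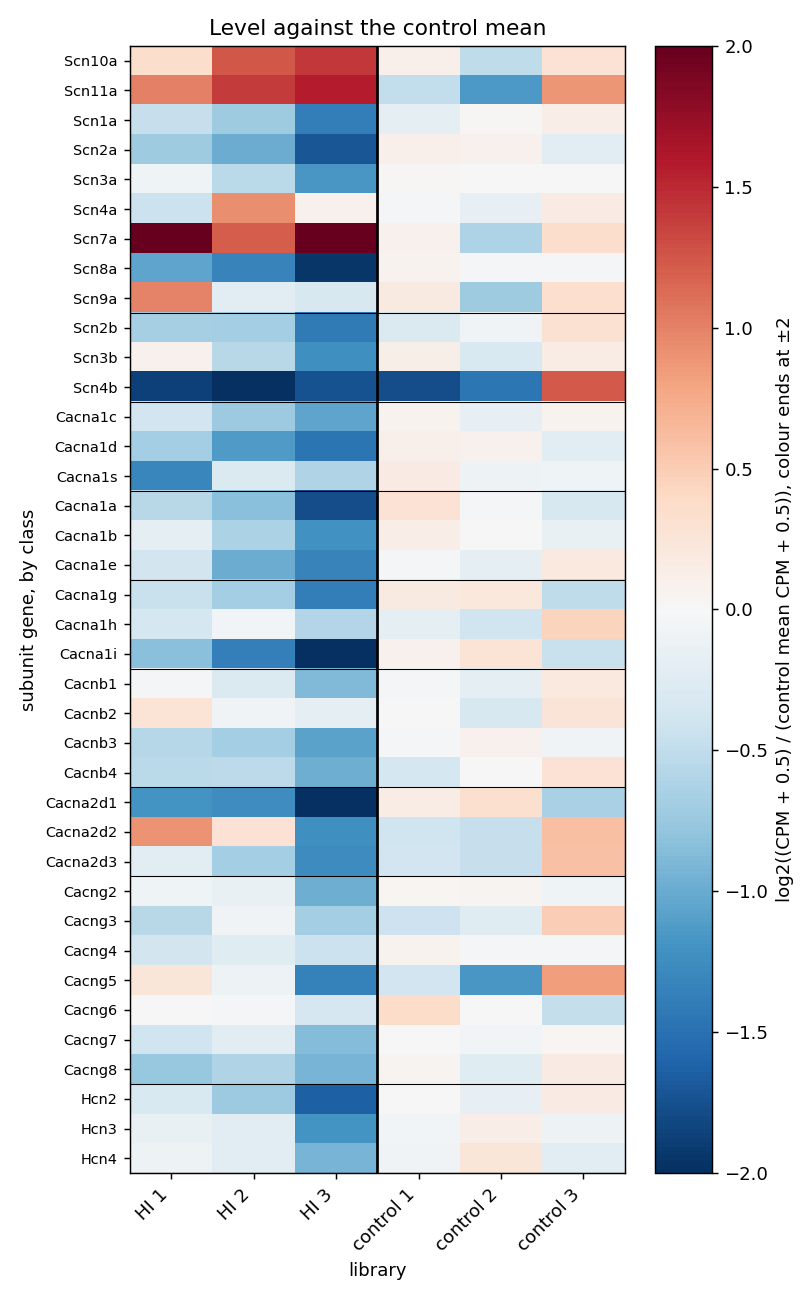
Level of tested subunit genes (rows, by class) in each library (columns) as log2 of CPM + 0.5 over the control mean + 0.5, with colours ending at ±2. The HI 3 column is the bluest of the 3 HI columns (median -1.16), and Scn7a, Scn10a and Scn11a run against it in red.

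Pore-forming sodium channel subunits differed in direction. Scn8a encodes Nav1.6, the channel of mature axon initial segments and nodes. It stood at 84.7, 69.3 and 45.1 CPM in HI 1, 2 and 3, against 184, 173 and 171 CPM in controls 1, 2 and 3. The controls lay close together, control 3 included, and every HI library was below 100 CPM, so the groups were far apart. Scn8a fell to 0.377 of the control level, a log2 fold change of -1.41 ± 0.22 (SE, edgeR adjusted p = 0.0232). Among subunit genes it had the smallest p, and it passed in 11 of 14 other settings, with edgeR, DESeq2 or limma adjusted p between 9.21e-07 and 0.0941.

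Scn2a encodes Nav1.2, the early channel of initial segments and of unmyelinated axons. Its levels were 263, 217 and 131 CPM in HI 1, 2 and 3, against 466, 461 and 369 CPM in controls 1, 2 and 3. HI 3 was the lowest HI library and control 3 the lowest control, with a gap of over 100 CPM between the groups. The log2 fold change was -1.08 ± 0.26 (SE, edgeR adjusted p = 0.0427). It was -1.13 with limma-voom (limma adjusted p = 0.0506) and -1.22 without control 3 (edgeR adjusted p = 0.0584), both just outside the threshold. The deposited counts of Scn2a, Scn1a, Scn3a and Scn9a, which are similar in sequence, are not whole numbers. How the fractions arose is not given in the sources used here, and the values of these 4 genes are uncertain if reads were divided among them.

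Sequences just upstream of 4 called genes are shown because Scn8a, Scn2a and Cacnb3 fell together while their upstream composition differed, and Scn7a rose. The 250 bases before the annotated start of Scn8a on the plus strand at chr7:133860977-133861226, of Scn2a on the plus strand at chr3:70710706-70710955, of Cacnb3 on the plus strand at chr7:131666301-131666550 and of Scn7a on the minus strand at chr3:71846285-71846534 follow 5′ to 3′ along the gene, from RefSeq on GRCr8, which is not the build of the counts. Capitals mark the GC box GGGCGG on either strand.
Scn8a: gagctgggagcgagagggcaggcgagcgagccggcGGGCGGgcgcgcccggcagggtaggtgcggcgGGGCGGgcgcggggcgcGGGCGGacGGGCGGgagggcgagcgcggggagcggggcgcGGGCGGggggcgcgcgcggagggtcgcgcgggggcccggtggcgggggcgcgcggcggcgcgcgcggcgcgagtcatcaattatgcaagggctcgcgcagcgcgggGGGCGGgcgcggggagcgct
Scn2a: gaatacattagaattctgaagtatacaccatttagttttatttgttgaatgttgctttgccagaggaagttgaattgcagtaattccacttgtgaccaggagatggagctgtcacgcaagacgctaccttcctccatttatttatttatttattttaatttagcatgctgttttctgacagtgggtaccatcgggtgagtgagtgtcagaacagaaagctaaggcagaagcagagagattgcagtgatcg
Cacnb3: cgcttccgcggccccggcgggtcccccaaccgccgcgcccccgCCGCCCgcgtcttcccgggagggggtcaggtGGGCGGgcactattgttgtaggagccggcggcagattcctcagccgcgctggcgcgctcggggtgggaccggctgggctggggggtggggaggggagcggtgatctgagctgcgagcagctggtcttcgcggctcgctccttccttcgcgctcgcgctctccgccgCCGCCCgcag
Scn7a: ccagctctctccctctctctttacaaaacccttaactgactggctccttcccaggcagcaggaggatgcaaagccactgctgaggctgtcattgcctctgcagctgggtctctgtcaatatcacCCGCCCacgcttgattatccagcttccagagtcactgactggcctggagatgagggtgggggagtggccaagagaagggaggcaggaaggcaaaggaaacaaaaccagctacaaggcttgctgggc

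The Scn8a window held 6 GC boxes, 53 CpG dinucleotides and 86.0% G and C, whereas that of Scn2a, which fell as well, held 0 GC boxes, 4 CpG and 39.6% G and C. The Cacnb3 window held 3 GC boxes and 35 CpG, and that of Scn7a, the gene that rose, 1 GC box and 2 CpG. A promoter entry existed for 28 of the 44 subunit genes, with the first entry taken where a gene had several. GC boxes were in 4 of the 6 windows of genes that fell (66.7%), in 8 of 20 windows of genes not called (40.0%) and in 32.4% of 27457 windows of all genes. The TATA box TATAAA was in 0 of the 6, in 2 of 20 windows of subunit genes not called and in 13.1% of all windows. CCAAT was in 0 of the 6, in 3 of 20 windows of subunit genes not called and in 34.3% of all. Each was searched on both strands. None of the 3 motifs contains another. Median CpG number was 33.5 in the 6 windows and 6 in all windows. These are letter counts in short windows and do not show binding.

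Scn1a and Scn3a did not pass the test. Scn1a encodes Nav1.1, prominent in inhibitory interneurons, and stood at 67.9 ± 20.9 CPM in HI and 119 ± 12.9 CPM in controls (SD, n = 3 each), with no overlap between the groups (edgeR adjusted p = 0.063). Scn3a encodes Nav1.3, the channel of embryonic and neonatal neurons. It had 205, 149 and 97.1 CPM in HI 1, 2 and 3, against 220, 217 and 215 CPM in controls 1, 2 and 3. The controls were almost level, and HI 1 lay just under them while HI 3 was at less than 50% of them. The log2 fold change of Scn3a was -0.53 ± 0.25 (SE, edgeR adjusted p = 0.178).

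Log2 fold changes above 0 were found for Scn7a, Scn10a, Scn11a, Scn9a and Scn4a. Scn7a encodes Nax, a sodium-level sensor of glia in the rodent brain rather than a voltage-gated channel. It had 81, 40 and 190 reads in HI 1, 2 and 3, against 12, 5 and 16 reads in controls 1, 2 and 3, which is 5.42, 2.57 and 11.5 CPM against 0.909, 0.368 and 1.2 CPM. Every HI library lay above every control, and the HI libraries spread over more than 4-fold among themselves. Scn7a rose 7.82-fold, a log2 fold change of 2.97 ± 0.68 (SE, edgeR adjusted p = 0.0391). With limma-voom the log2 fold change was 2.83 (limma adjusted p = 0.0754). Without HI 3, the highest library, it was 2.26 (edgeR adjusted p = 0.0836), and without control 3 it was 3.3 (edgeR adjusted p = 0.061), so neither passed. Astrocyte markers summed to 3420 to 5040 CPM in HI and 1400 to 2290 CPM in the controls, 2 of 10 rose and 0 fell. Gfap, which rose, had 937, 1400 and 2310 CPM in HI 1, 2 and 3. In controls 1, 2 and 3 Gfap had 146, 143 and 136 CPM. Slc1a2, Aldoc and Aldh1l1 had log2 fold changes below 0, and the other astrocyte markers above 0. Smooth muscle and pericyte markers summed to 285 to 599 CPM in HI and 185 to 236 CPM in the controls, 4 of 10 rose and 0 fell. Tagln, which rose, had 52.4, 159 and 257 CPM in HI 1, 2 and 3. In controls 1, 2 and 3 Tagln had 2.65, 4.71 and 6.89 CPM. Groups overlapped for Vtn, Abcc9, Kcnj8, Notch3 and Rgs5 and were separate for the other markers of this list. Over all tested genes, 6.83% rose and 7.04% fell by edgeR. The part of either marker list in the Scn7a values was not tested.

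Scn10a and Scn11a encode Nav1.8 and Nav1.9, channels of peripheral nociceptors, and are given by library after their values were seen. They are near neighbours with 1 protein-coding gene between them in the RefSeq order of assembly GRCr8.

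Scn11a had 3.74, 5.01 and 5.7 CPM in HI 1, 2 and 3, against 0.984, 0.442 and 3.37 CPM in controls 1, 2 and 3. Control 3 was near the HI libraries and far above the other controls, although the groups did not overlap. Its log2 fold change was 1.59 ± 0.68 (SE, edgeR adjusted p = 0.144), and 2.71 without control 3 (edgeR adjusted p = 0.0326). Scn10a rested on few reads, 12, 30 and 37 in HI and 8, 3 and 10 in the controls, and did not pass (edgeR adjusted p = 0.0974), but did without HI 1 (edgeR adjusted p = 0.0484). HI 1 lay only just above the highest control for Scn10a. Every HI library stood above every control for 21.5% of all tested genes.

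Scn9a, the Nav1.7 gene of sensory and hypothalamic neurons, had log2 fold change 0.28 ± 0.43 (SE), with HI 1 at 80.4 CPM above all other libraries. Scn4a, the skeletal muscle gene, had at most 55 reads in any library and a log2 fold change of 0.39 ± 0.48 (SE). Neither passed by edgeR, and the sign of both depended on which library was left out.

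**Figure D3:**
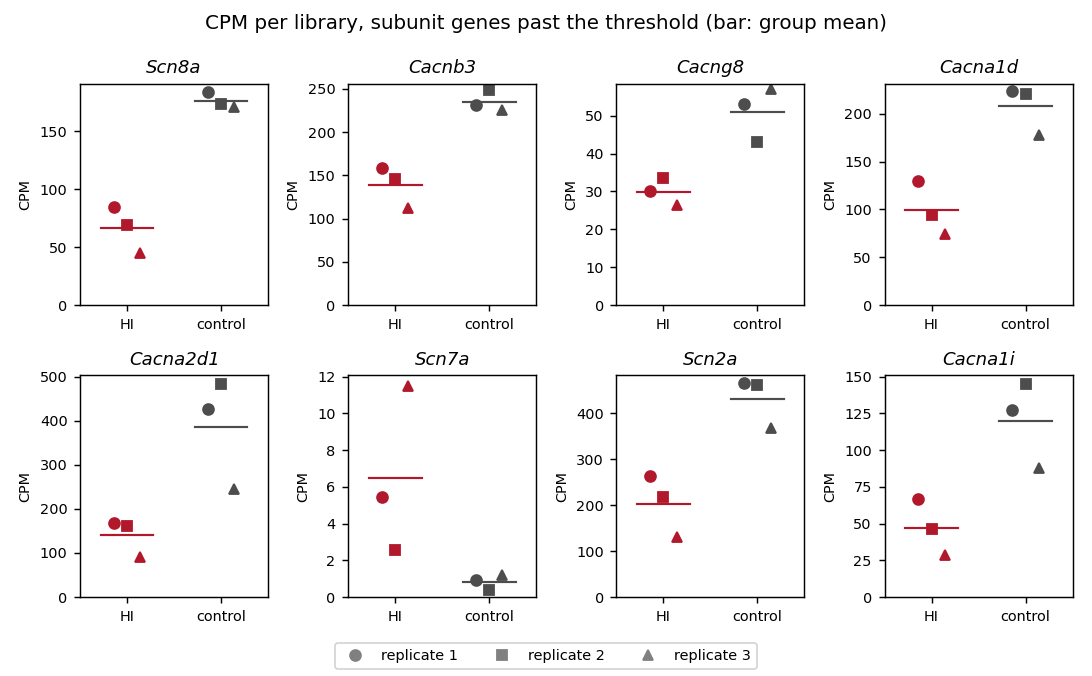
CPM per library for subunit genes past the threshold, HI in red at the left and control in grey at the right of each panel, marker shape for the replicate number and a bar at the group mean, with vertical axes starting at 0. The groups are separate in every panel, with Scn7a the only gene higher in HI.

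Sodium channel beta subunits are single-span proteins that modulate gating and bind adhesion molecules. Scn2b had 72.6, 71.3 and 42.7 CPM in HI 1, 2 and 3, against 93.4, 109 and 142 CPM in controls 1, 2 and 3. The groups were separate, the controls were widely spread, and the log2 fold change of -0.89 ± 0.25 (SE) did not pass (edgeR adjusted p = 0.0591). Scn3b had 396, 255 and 159 CPM in HI 1, 2 and 3, against 404, 302 and 414 CPM in controls 1, 2 and 3. HI 1 lay within the control range, and Scn3b did not pass (edgeR adjusted p = 0.338).

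Scn4b, a beta subunit abundant in striatal projection neurons and cerebellar Purkinje cells, had 1.94, 0.707 and 2.18 CPM in HI 1, 2 and 3, against 2.12, 2.8 and 20.4 CPM in controls 1, 2 and 3. Control 3 alone stood high, and it was also the library with 1500 CPM of summed striatal markers. The log2 fold change of -2.38 ± 0.97 (SE, edgeR adjusted p = 0.129) was -0.64 without control 3 (edgeR adjusted p = 0.436).

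**Figure D4:**
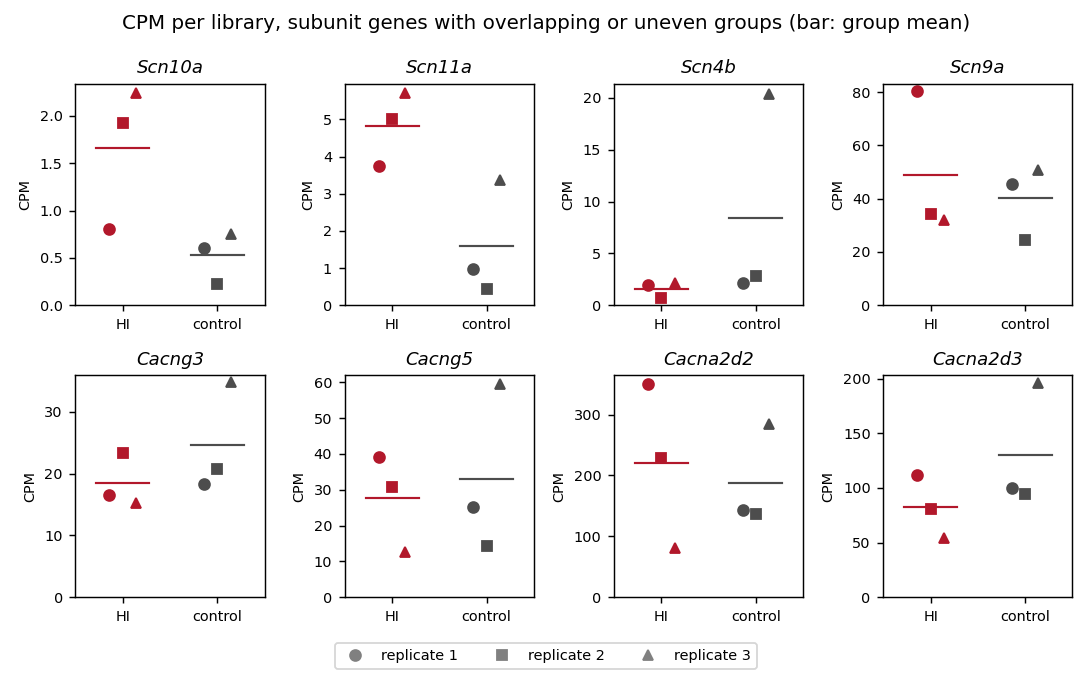
CPM per library for 8 subunit genes with uneven groups, HI in red at the left and control in grey at the right, marker shape for the replicate number, a bar at the group mean and vertical axes starting at 0. Control 3, the grey triangle, is the highest control in all 8 panels, and for Scn4b it stands at 20.4 CPM against at most 2.8 CPM elsewhere.

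Among the pore genes of the L-type (Cav1) calcium channels, Cacna1d was lower in HI. It encodes Cav1.3, which opens at comparatively negative potentials, and had 130, 94.0 and 74.9 CPM in HI 1, 2 and 3, against 224, 221 and 178 CPM in controls 1, 2 and 3. The lowest control was control 3, still well above HI 1. Cacna1d fell to 0.48 of the control level (log2 fold change -1.06 ± 0.22 SE, edgeR adjusted p = 0.032). Cacna1c, which encodes Cav1.2, the main L-type channel of forebrain neurons and vascular muscle, had 120, 94.3 and 75.0 CPM in HI 1, 2 and 3, against 165, 140 and 164 CPM in controls 1, 2 and 3. The groups were separate here too, and the log2 fold change of -0.7 ± 0.18 (SE) lay just outside the threshold (edgeR adjusted p = 0.0513). Cacna1s, of skeletal muscle, had at most 14 reads in a library and did not pass (edgeR adjusted p = 0.224). Cacna1f, of the retina, had at most 5 reads and was too low to be tested.

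The presynaptic Cav2 pore genes did not pass the test, although for each of the 3 every HI library lay below every control. Cacna1e, of R-type channels, had 282, 181 and 143 CPM in HI 1, 2 and 3, against 353, 318 and 416 CPM in controls 1, 2 and 3 (log2 fold change -0.84 ± 0.26 SE, edgeR adjusted p = 0.0702). Cacna1b, of N-type channels, had 273, 199 and 133 CPM in HI 1, 2 and 3, against 337, 308 and 278 CPM in controls 1, 2 and 3 (log2 fold change -0.61 ± 0.25 SE, edgeR adjusted p = 0.136). HI 1 was the highest HI library for both genes. Cacna1a, of P/Q-type channels, averaged 151 ± 59.1 CPM in HI and 295 ± 63.5 CPM in controls (SD, n = 3 each), with an edgeR adjusted p of 0.0845. DESeq2 called Cacna1a and Cacna1e.

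T-type (Cav3) channels open near the resting potential and support burst firing. Cacna1i, of Cav3.3, had 66.8, 46.0 and 28.3 CPM in HI 1, 2 and 3, against 127, 145 and 87.9 CPM in controls 1, 2 and 3. Control 3 was the lowest control but still above HI 1. Cacna1i fell to 0.392 of the control level (log2 fold change -1.35 ± 0.33 SE, edgeR adjusted p = 0.0456). Without control 3 the log2 fold change was -1.56, just outside the threshold (edgeR adjusted p = 0.0503).

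Cacna1g, of Cav3.1, had 240, 205 and 125 CPM in HI 1, 2 and 3, against 371, 381 and 231 CPM in controls 1, 2 and 3. HI 1 stood above control 3, so the groups overlapped, and Cacna1g did not pass (edgeR adjusted p = 0.106). Cacna1h, of Cav3.2, had 114, 141 and 97.5 CPM in HI 1, 2 and 3, against 129, 111 and 199 CPM in controls 1, 2 and 3. The groups overlapped and the log2 fold change was -0.32 ± 0.25 (SE, edgeR adjusted p = 0.38).

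Calcium channel beta subunits are cytoplasmic and bring the pore to the membrane. Cacnb3 had 158, 146 and 112 CPM in HI 1, 2 and 3, against 231, 249 and 225 CPM in controls 1, 2 and 3. Both groups were tight, with control 3 level with the other controls. Cacnb3 fell to 0.59 of the control level (log2 fold change -0.76 ± 0.15 SE, edgeR adjusted p = 0.0291) and passed in 11 of 14 other settings.

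Cacnb1 had 142, 118 and 77.4 CPM in HI 1, 2 and 3, against 142, 125 and 164 CPM in controls 1, 2 and 3. HI 1 was level with control 1, and Cacnb1 did not pass (edgeR adjusted p = 0.308). Cacnb4, whose loss causes ataxia and seizures in the lethargic mouse, averaged 75.3 ± 12.6 CPM in HI and 120 ± 26.0 CPM in controls (SD, n = 3 each), with an edgeR adjusted p of 0.0657. Cacnb2 averaged 34.6 ± 6.07 CPM in HI and 34.1 ± 6.86 CPM in controls (SD, n = 3 each), a log2 fold change of 0.02 ± 0.2 (SE).

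Alpha2delta subunits are extracellular and set the surface density of calcium channels, and Cacna2d1 and Cacna2d2 encode the binding sites of gabapentin. Cacna2d1 had 167, 162 and 91.4 CPM in HI 1, 2 and 3, against 426, 483 and 245 CPM in controls 1, 2 and 3. Control 3 lay well below the other controls and still above HI 1. Cacna2d1 fell to 0.365 of the control level (log2 fold change -1.46 ± 0.33 SE, edgeR adjusted p = 0.0377).

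Cacna2d2 had 351, 229 and 80.2 CPM in HI 1, 2 and 3, against 143, 136 and 285 CPM in controls 1, 2 and 3. The HI libraries spanned both ends of the range, and the log2 fold change was 0.23 ± 0.54 (SE, edgeR adjusted p = 0.785). Cacna2d3 had 112, 80.6 and 54.2 CPM in HI 1, 2 and 3, against 100, 94.2 and 196 CPM in controls 1, 2 and 3, shown after its values were seen. Its groups overlapped and control 3 was the highest library. Cacna2d4 had 1 read in HI 3 and 0 in the other 5 libraries, so it was not tested.

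Of the gamma family, Cacng2, Cacng3, Cacng4, Cacng5, Cacng7 and Cacng8 encode transmembrane AMPA receptor regulatory proteins (TARPs), which carry AMPA-type glutamate receptors to synapses, while Cacng1 encodes the gamma subunit of the skeletal muscle calcium channel and Cacng6 is its close relative. Cacng8 had 30.0, 33.5 and 26.4 CPM in HI 1, 2 and 3, against 53.1, 43.0 and 56.9 CPM in controls 1, 2 and 3. The groups were separate and each was tight. Cacng8 fell to 0.587 of the control level (log2 fold change -0.77 ± 0.15 SE, edgeR adjusted p = 0.0307). With replicate number as a block it was -0.76 and did not pass (edgeR adjusted p = 0.0654).

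Cacng4 had 63.6, 69.2 and 61.1 CPM in HI 1, 2 and 3, against 86.5, 80.0 and 80.6 CPM in controls 1, 2 and 3. All HI libraries lay below all controls by a small step, with a log2 fold change of -0.35 ± 0.09 (SE, edgeR adjusted p = 0.0535). Cacng7 had 92.7, 106 and 66.7 CPM in HI 1, 2 and 3, against 124, 118 and 126 CPM in controls 1, 2 and 3. The groups did not overlap, the controls were nearly level, and Cacng7 did not pass (edgeR adjusted p = 0.106).

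Neither Cacng2, the stargazin gene, nor Cacng3 passed, at log2 fold changes of -0.35 and -0.42 (edgeR adjusted p = 0.333 for each). Cacng5 had 39.2, 30.9 and 12.6 CPM in HI 1, 2 and 3, against 25.1, 14.4 and 59.6 CPM in controls 1, 2 and 3, given after its values were seen. Its log2 fold change was -0.26 in all libraries and 0.45 without control 3, neither of which passed. Cacng6 had 11 to 25 reads in a library and Cacng1 at most 3.

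Among HCN channel genes, Hcn2, prominent in thalamic relay neurons, had 62.7, 47.0 and 24.8 CPM in HI 1, 2 and 3, against 77.2, 69.1 and 87.4 CPM in controls 1, 2 and 3. HI 1 was close to control 2, and Hcn2 did not pass (edgeR adjusted p = 0.124). Hcn3 had 39.0, 36.8 and 18.5 CPM in HI 1, 2 and 3, against 41.6, 47.7 and 40.4 CPM in controls 1, 2 and 3 (edgeR adjusted p = 0.275). HI 3 was the library that stood apart. Hcn4, the pacemaker channel of the sinoatrial node, averaged 28.4 ± 8.11 CPM in HI and 37.0 ± 6.14 CPM in controls (SD, n = 3 each), with an edgeR adjusted p of 0.297.

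Ratios between related subunits within a library do not depend on scaling or library size, and they are given as values with no test. The log2 ratio of Scn8a to Scn2a was -1.64, -1.65 and -1.53 in HI 1, 2 and 3, against -1.34, -1.41 and -1.11 in controls 1, 2 and 3. Scn8a to Scn1a stood at -0.02, -0.07 and 0 in HI 1, 2 and 3, against 0.8, 0.51 and 0.38 in controls 1, 2 and 3. For Scn3a to Scn2a the ratio was -0.36, -0.54 and -0.43 in HI 1, 2 and 3, against -1.08, -1.08 and -0.78 in controls 1, 2 and 3. Relative to Scn2a, then, Scn8a reads were fewer and Scn3a reads more numerous in all 3 HI libraries than in any control, with the uncertainty of the fractional counts of Scn1a, Scn2a and Scn3a. HI 3, the lowest library for most subunits, lay close to HI 1 and HI 2 in these ratios.

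Cacna1a to Cacna1b was also lower in all HI libraries, with a mean log2 ratio of -0.45 ± 0.18 in HI and -0.08 ± 0.17 in controls (SD, n = 3 each). Cacna1d to Cacna1c averaged 0.04 ± 0.07 in HI and 0.4 ± 0.27 in controls, and HI 1 and control 3 were equal to 2 decimals at 0.12. Cacna2d1 to Cacna2d2 averaged -0.46 ± 0.63 in HI and 1.06 ± 1.12 in controls and overlapped, since control 3 was at -0.22. The groups overlapped for Scn4b to Scn2b, Cacnb4 to Cacnb3, Cacng3 to Cacng4 and Cacng8 to Cacng2.

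**Figure D5:**
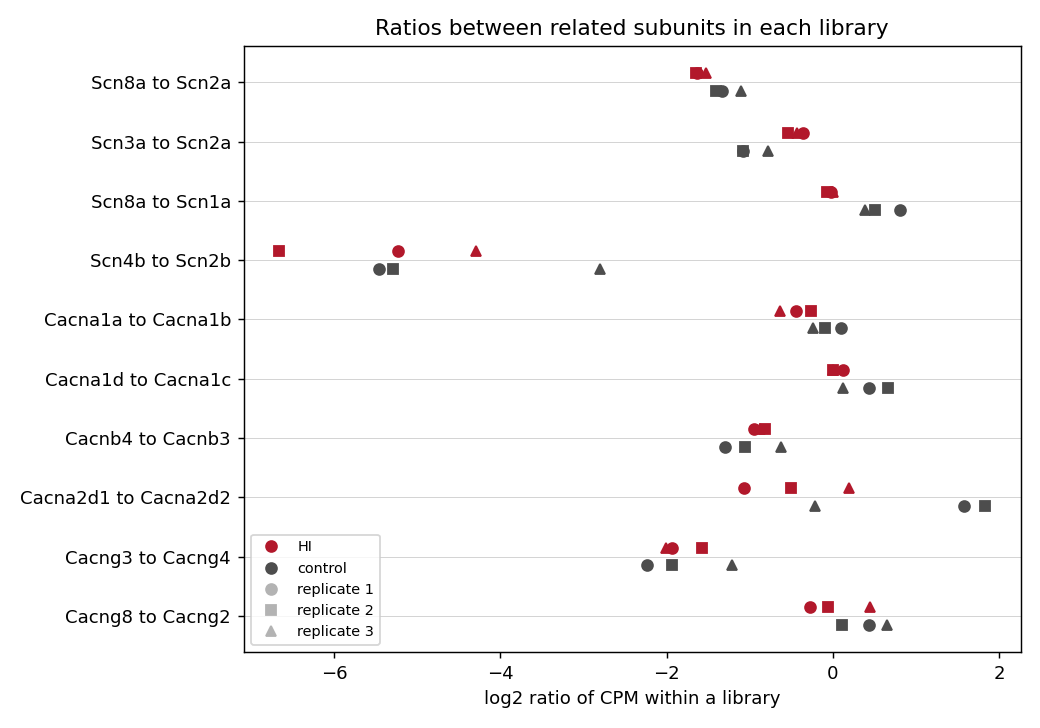
Log2 ratio of CPM between related subunits within each library (horizontal axis), HI in red above control in grey on each line, marker shape for the replicate number. HI and control points are apart for Scn8a to Scn2a, Scn3a to Scn2a, Scn8a to Scn1a and Cacna1a to Cacna1b, and nearly touch for Cacna1d to Cacna1c.

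Genes whose products bind these channels were counted from lists. Over all tested genes, 7.04% fell and 6.83% rose by edgeR, with a median log2 fold change of 0.04. Of 12 sodium channel and axon initial segment partners 6 fell and 0 rose, with a median log2 fold change of -0.72. Fgf13, a cytoplasmic relative of fibroblast growth factors that binds sodium channels, fell to 0.4 of the control level (edgeR adjusted p = 0.022), and Sptbn4, the spectrin of initial segments, to 0.504 (edgeR adjusted p = 0.0349). Of 16 tested calcium channel partners and modulators 6 fell and 2 rose, with a median of -0.59. Calm2, a calmodulin gene, fell to 0.514 and Cabp1, a neuronal calcium sensor, to 0.336 of the control level (edgeR adjusted p = 0.0232 and 0.0236). The members that rose, named after their values were seen, were Gem (3.81-fold) and Rrad (2.31-fold), small GTPases that inhibit calcium channels.

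Of 10 AMPA receptor subunits and other auxiliary subunits, which share receptors with the TARPs, 2 fell and 0 rose, with a median of -0.59. Those were Gria3 and Cnih2, at 0.413 and 0.563 of the control level (edgeR adjusted p = 0.0219 and 0.0307). Of 5 HCN channel partners 2 rose and 0 fell, namely Mrvi1 (3.46-fold) and Lrmp (2.39-fold), related membrane proteins of the endoplasmic reticulum of which Lrmp is known to modulate Hcn4 (edgeR adjusted p = 0.0258 and 0.034). That list had a median of 1.25 and also holds Kcne2, a choroid plexus gene. Its remaining members, Pex5l and Kctd3, are named after their values were seen. Both were lower in every HI library than in any control, at 0.397 and 0.814 of the control level. Neither passed (edgeR adjusted p = 0.0531 and 0.179). Of 4 genes of the sodium leak channel complex 0 passed by edgeR, with a median of -0.31, and Fam155a and Unc79 had the smallest p (edgeR adjusted p = 0.085 and 0.298).

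Markers of other cells were counted in the same way, beside 7.04% of all tested genes lower and 6.83% higher. Of 11 microglia and macrophage markers 8 rose and 0 fell (308 to 525 CPM in HI, 112 to 170 in the controls), and of 8 endothelial markers 1 rose and 0 fell (171 to 345 CPM in HI, 153 to 210 in the controls). Of 8 oligodendrocyte precursor markers 1 fell and 0 rose, and of 7 tested myelinating oligodendrocyte markers 2 fell and 0 rose. Of 6 tested cerebellar neuron markers 1 fell and 0 rose, and Gabra6, the defining receptor subunit of cerebellar granule cells, had fewer than 10 reads in every library. By edgeR 0 of 8 thalamic, 0 of 8 striatal and 0 of 7 tested choroid plexus markers passed.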

How the data were processed

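Values in the deposited table are unscaled estimated counts, per the file headers and the values, and 8.87% of its entries are not whole to within 1e-09. The submitters' processing notes name HISAT2 2.1.0, SAMtools 1.10, StringTie 2.2.1 and Rnor 6.0, and the labels' protocols name TRIzol extraction and a SMARTER mRNA-Seq kit. How reads were counted, with which annotation and strand setting, is not given in the sources used here. Columns were matched to samples by title, of which control 1 lacks a letter in the table.

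Counts were rounded, filtered with filterByExpr (minimum count 10), scaled by TMM and tested over all genes with the two-sided quasi-likelihood F test of edgeR 4.0.16 (R 4.3.3), with group as the only term and a threshold of 0.05. SE were derived from F. The common biological coefficient of variation was 0.275. The procedure was tested on simulated data. DESeq2 1.42.0 and limma 3.58.1 served as alternatives, beside other scalings and filters, a replicate block and leaving out each library. No library pair was a duplicate (chi-square per degree of freedom from 13.4 to 162).

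Subunit genes are accounted for, except that a few are counted but not reported here by name, with values per library for those past the threshold and for the 2 of highest mean CPM in each class. Members and lists were chosen with earlier results of these data known. Of lists, the 2 genes with the smallest p are named. Library medians used log2 with 0.5 CPM added. RefSeq tables of GRCr8 gave gene order, older symbols and upstream sequence, and all 44 subunit genes matched by gene number.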

Additional observations from a re-analysis of the deposited data

How the results depend on the processing

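Of the 41 tested subunit genes, the 10 called genes kept their direction in all 14 other settings, which is largely fixed by their being called on these libraries. Between 9 and 11 subunit genes passed with DESeq2 size factors, upper-quartile factors, total counts, no filter or a filter of 1 CPM in 3 libraries. DESeq2 called 18 lower and 1 higher (4200 genes in all), and limma-voom 7 lower and 0 higher (1371 in all). By limma-voom 24 of 41 subunit genes had an unadjusted p below 0.05, as did 5246 of 14959 tested genes. Leaving out a library moved the number lower between 0 and 15, the number higher between 0 and 2 and the number of all genes called between 0 and 3689. Upper-quartile factors and total counts moved the median of all genes to 0.14 and 0.23 and that of the subunit genes to -0.52 and -0.42. Titles share replicate numbers, but deviations of equal numbers correlated at 0.239, 0.073 and -0.146, so they were not taken as pairs. The replicate block gave 9 lower and 1 higher, 8 of these 10 calls being shared with the fit without it, with Cacng8 among those lost and Cacna1a and Cacna1g gained.

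Signs turned only for genes that were not called. With a library left out, Scn4a ran from -0.19 to 0.7, Scn9a from -0.28 to 0.51 (0 to 2 decimals, -0.0, without control 2), Cacna2d2 from -0.29 to 0.63, Cacng5 from -0.64 to 0.45 (0.08 without HI 3), Cacng6 from -0.46 to 0.12 and Cacnb2 from -0.15 to 0.14 (-0.14 without HI 1, -0.0 without control 1). Cacng6 was 0.02 with total counts, and Cacnb2 was -0.01 with DESeq2 and -0.02 with no filter. The cause was not tested. With a library left out, the difference in log2 ratio, HI minus control, ran from -1.42 to -0.02 for Scn4b to Scn2b, from -0.04 to 0.3 for Cacnb4 to Cacnb3 and from -0.26 to 0.25 for Cacng3 to Cacng4. Depth limits Cacna1f, Cacna2d4 and Cacng1, which had at most 5 reads, and the 7 tested genes under 10 CPM, and intervals from reads of amplified libraries would cover counting error only.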
